A study of Mus musculus with 31 samples.

Results

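Cardiac fibroblasts that had been in a three-dimensional (3D) arrangement and were then placed in a flat layer (2D), the group labelled 3D-2D, were compared with cells of the group labelled 3D. The comparison takes 5 of the 29 RNA libraries of the series, 2 labelled 3D-2D and 3 labelled 3D, found by the titles of the count columns. The cells came from hearts of C57Bl/6 mice 8 to 12 weeks old and went into culture straight after isolation. The labels name no other allele and no agent for either group, and they mark treatment as not applicable. The order of the arrangements was taken from the label. The sources used here give neither the time spent in each arrangement, the material that carried the cells, the way they were moved nor the number of mice behind a library. Time in culture and arrangement therefore cannot be told apart in this comparison. The labels do not say which libraries came from separate mice or cultures, so the p-values cover only how far these libraries differ, and part of that may be technical.

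Gene counts came to 24134346 and 20923257 in the 3D-2D libraries and to between 18777061 and 26324009 in the 3D libraries. The 3D replicates 1 and 2 were close to each other, with a standard deviation of 0.28 for their log2 differences over all genes tested, while 3D replicate 3 stood apart from them at 1.06 and 0.966. The 3D-2D libraries differed by 0.341 from each other and by 1.33 to 1.44 from the 3D libraries. All 5 libraries held Xist reads, and 3D replicate 3 held 2498 reads of Y-linked genes against 0, 0, 0 and 1 in the others, so its source differed from theirs at least in part. The sum over 15 macrophage markers was 9489.5, 6659 and 246 CPM (counts scaled to a library of 1000000) in 3D and 963 and 715 CPM in 3D-2D. For many results below, the value without 3D replicate 3 or against it alone therefore stands beside the main value. Of the fibroblast markers, the growth factor receptor gene Pdgfra was at 566, 629 and 472 CPM in 3D and 335 and 326 CPM in 3D-2D. The collagen gene Col1a1 was at 12876, 14298 and 9472 CPM and 7814 and 7729 CPM, so defining fibroblast genes were present in every library. In bulk RNA, fewer cells of a type and less RNA per cell cannot be told apart.

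A fibroblast that spreads on a flat and stiff surface anchors itself through integrins and pulls on them with actin and myosin. As actin filaments form, the coactivator MRTF is freed from actin monomers and switches on genes with SRF, which binds a short DNA element, the CArG box. Spreading also lets the coactivators YAP and TAZ enter the nucleus, where they act through TEAD proteins. In the injured heart these routes accompany the change of a resting fibroblast into a myofibroblast, a contractile cell that carries alpha smooth muscle actin and remodels collagen.

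Short promoter stretches show the DNA elements that these routes use, in genes that were higher in 3D-2D and, for the interferon element, in a gene that was lower. All are from RefSeq on GRCm38.p6, lie within 250 bases before the gene's start, are written 5′ to 3′ on the gene's strand, and have the element on either strand in capitals. The CArG box stands in the promoters of Myl9, a myosin light chain (chr2:156775273-156775342 on the + strand), Actg1, cytoplasmic gamma-actin (chr11:120348546-120348615 on the - strand), Cnn2, the actin-binding protein calponin 2 (chr10:79988514-79988583 on the + strand), and Vcl, the adhesion protein vinculin (chr14:20929151-20929200 on the + strand):
Myl9: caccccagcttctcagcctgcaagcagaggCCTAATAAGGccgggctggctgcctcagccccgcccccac
Actg1: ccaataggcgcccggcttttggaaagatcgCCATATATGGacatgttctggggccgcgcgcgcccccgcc
Cnn2: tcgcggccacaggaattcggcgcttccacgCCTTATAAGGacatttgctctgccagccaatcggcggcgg
Vcl: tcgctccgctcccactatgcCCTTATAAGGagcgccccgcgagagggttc

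The TEAD element, GGAATG, stands in the promoters of Ankrd1, a cardiac ankyrin repeat protein (chr19:36119942-36120074 on the - strand), Amotl2, a regulator of YAP (chr9:102717709-102717774 on the + strand), Crim1, a membrane protein that binds growth factors (chr17:78200139-78200204 on the + strand), and Cyr61, a matricellular protein (chr3:145650053-145650118 on the - strand). On the opposite strand it reads CATTCC:
Ankrd1: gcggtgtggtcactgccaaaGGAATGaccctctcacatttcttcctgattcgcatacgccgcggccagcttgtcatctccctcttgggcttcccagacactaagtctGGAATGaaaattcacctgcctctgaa
Amotl2: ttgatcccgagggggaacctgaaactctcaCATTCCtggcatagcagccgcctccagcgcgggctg
Crim1: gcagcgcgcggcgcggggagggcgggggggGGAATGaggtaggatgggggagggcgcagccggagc
Cyr61: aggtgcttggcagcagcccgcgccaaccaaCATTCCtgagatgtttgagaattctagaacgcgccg

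Genes of mitosis often carry TTTGAA, the cell cycle homology region, near their start. It is shown for the kinase gene Cdk1 (chr10:69352913-69352998 on the - strand), for Cdc20, which activates the anaphase-promoting complex (chr4:118437344-118437391 on the - strand), and for Prc1, which bundles microtubules in cytokinesis (chr7:80294416-80294475 on the + strand):
Cdk1: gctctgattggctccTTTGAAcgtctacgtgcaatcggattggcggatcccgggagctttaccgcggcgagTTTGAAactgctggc
Cdc20: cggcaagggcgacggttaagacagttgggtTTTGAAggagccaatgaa
Prc1: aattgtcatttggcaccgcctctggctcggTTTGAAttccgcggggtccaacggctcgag

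B2m, the light chain of MHC class I molecules, holds the interferon element, GAAA followed after 2 bases by another GAAA (chr2:122147518-122147587 on the + strand):
B2m: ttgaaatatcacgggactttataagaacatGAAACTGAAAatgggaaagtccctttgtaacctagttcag

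Cnn2 and Cdk1 fall outside the rule for named genes and were chosen after their values were seen, because they hold the element. Cnn2 was at 63.9, 61.6 and 59.03 CPM in 3D and 1001 and 1141 CPM in 3D-2D (log2 change 4.12 ± 0.17, adjusted p = 8.36e-14), and Cdk1 was at 10.8, 9.89 and 6.07 CPM and 70.9 and 48.7 CPM (log2 change 2.75 ± 0.33, adjusted p = 5.42e-07). The match in Ankrd1 nearest its start began 123 bases before it and the farther one 210 bases before it. Of the contractile genes tested with a promoter in the RefSeq table, 7 of 29 (24.1%) held a CArG box, against 1.44% of all 11070 tested genes with a promoter there. A gene with several starts was counted if any of them held the element. GGAATG occurred in 14 of 28 YAP and TEAD genes, against 13.1% of all genes. In mitosis genes, TTTGAA occurred in 10 of 28 (35.7%, all genes 12.7%) and CCAAT, the site of the factor NF-Y, in 22 of 28 (78.6%, all genes 40.1%). The E2F element, searched as TTTCGCGC or TTTGGCGC, occurred in 5 of 28 replication genes (17.9%, all genes 1.37%). CACGTG, the element of the lysosome regulator TFEB, occurred in 9 of 32 lysosome genes (28.1%, all genes 9.67%). The interferon element occurred in 12 of 29 interferon response genes (41.4%, all genes 3.24%), and the sterol element TCACCCCAC in 1 of 22 cholesterol genes (4.55%, all genes 0.614%). Both strands were searched, the CArG box is the only one of these elements that can contain another (CCAAT), and a match describes the letters of the window only. The CArG box was searched only as CC, then A or T bases alone, then GG, 10 bases in all. Forms with a G or C between these ends were not searched. Acta2, the alpha smooth muscle actin gene, was in the promoter table with no match to this strict form in its 250 bases.

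Moving to 2D went with a broad change of the transcriptome. Most tested genes of the contractile apparatus, of integrin adhesion, of YAP and TEAD and their targets, and of replication, mitosis and ribosome assembly were higher in 3D-2D. Most lysosome genes and resting fibroblast markers were lower, as were 16 of 29 collagen chains. Of 14036 genes tested, 7936 (56.5%) passed an adjusted p of 0.05 and are called changed below: 4044 (28.8%) were higher and 3892 (27.7%) lower in 3D-2D. Counts of called list members below are to be read beside these shares. The 2 groups did not overlap for 9913 genes (70.6%), 5171 (36.8%) of them higher and 4742 (33.8%) lower. Called falls were more often large than called rises. A change of at least 2-fold was reached by 1737 genes that rose (12.4%) and 2393 that fell (17.0%), and one of at least 16-fold by 124 and 243. The median log2 change of all genes tested was -0.02, and the middle 90% of genes lay between -2.75 and 1.94. Without 3D replicate 3, 7845 of 14004 genes (56.0%) were called, 4077 (29.1%) higher and 3768 (26.9%) lower. Against 3D replicate 3 alone there were 6392 of 14304 (44.7%), 3245 (22.7%) higher and 3147 (22.0%) lower. Without 3D-2D replicate 2 the lower count came to 2580, with the lone 3D-2D library assumed to vary like the other groups. With the most alike libraries of each group summed into 1, 3991 genes were called.

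**Figure D1:**
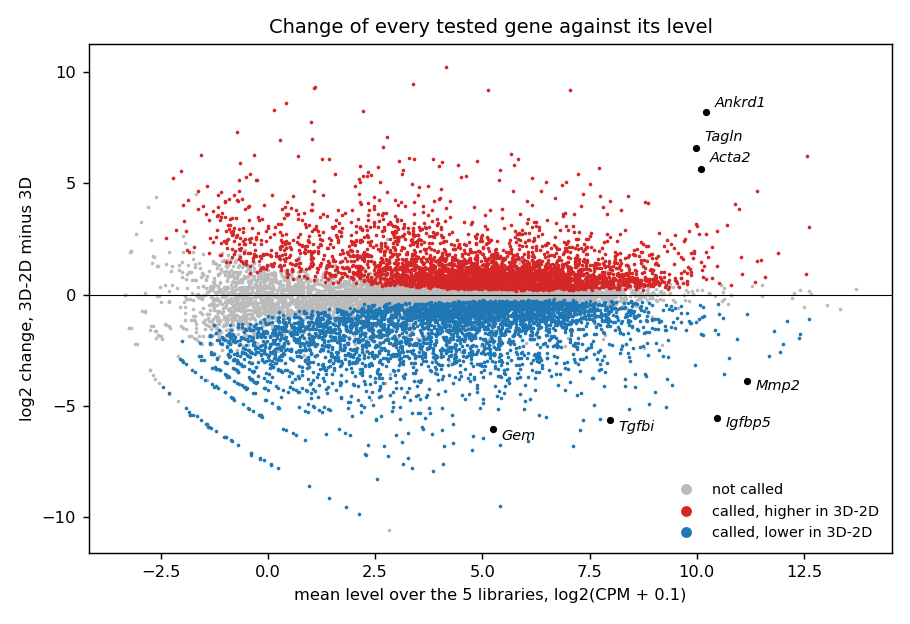
Each point is 1 of the 14036 genes tested, with its mean level over the 5 libraries on the x axis, as log2(CPM + 0.1), and its log2 change, 3D-2D minus 3D, on the y axis. Red points passed the test and were higher in 3D-2D (4044), blue points passed and were lower (3892), and grey points did not pass. The points of Ankrd1 and Tagln lie at 8.22 and 6.59, and those of Igfbp5 and Mmp2 at -5.52 and -3.86.

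The rise was largest in Ankrd1, among genes that were called, did not overlap between the groups and averaged 3 or more in log2 CPM (chr19:36111965-36119844 on mm10), whose protein shuttles between the sarcomere and the nucleus in muscle and which YAP switches on in many cells. It was at 8.33, 8.79 and 12.6 CPM in 3D and 2489 and 3460.0 CPM in 3D-2D (log2 change 8.22 ± 0.61, adjusted p = 7.6e-10; ± is the standard error). Tagln (chr9:45929628-45936058), the actin-binding protein SM22-alpha, was at 23.1, 26.7 and 27.5 CPM and 1935 and 3035 CPM (log2 change 6.59 ± 0.40, adjusted p = 3.46e-11). Both genes went from low levels in all 3D libraries to high levels in both 3D-2D libraries. Acta2 (chr19:34240336-34255585) was at 50.4, 60.5 and 49.5 CPM and 2476 and 2886 CPM (log2 change 5.65 ± 0.48, adjusted p = 5.13e-09). In these 3 genes every 3D-2D library was far above every 3D library, though the rule that chose them already required separate groups.

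Rnd1, a small GTP-binding protein that loosens stress fibres (chr15:98669205-98677461), rose from 2.08, 2.58 and 2.19 CPM to 111 and 148 CPM (log2 change 5.82 ± 0.39, adjusted p = 1.37e-10). Npnt, the integrin ligand nephronectin (chr3:132881745-132950291), rose from 9.24, 10.9 and 9.61 CPM to 352 and 670.3 CPM (log2 change 5.68 ± 0.44, adjusted p = 1.35e-09), and 3D-2D replicate 2 was the higher of the pair. Ddah1, an enzyme that breaks down inhibitors of nitric oxide synthase (chr3:145758692-145894277), was at 7.97, 7.59 and 9.93 CPM in 3D and 334 and 389 CPM in 3D-2D (log2 change 5.41 ± 0.29, adjusted p = 3.24e-12). Epha2, a receptor tyrosine kinase for ephrins (chr4:141301221-141329384), was at 7.72, 8.84 and 9.75 CPM and 281 and 309.6 CPM (log2 change 5.07 ± 0.45, adjusted p = 9.16e-09). The other leading rises were Asb5 (5.61 ± 0.39 on the log2 scale), the actin-bundling Aif1l (5.16 ± 0.53), the glycosyltransferase Galnt18 (5.25 ± 0.66) and the keratinocyte envelope protein Sprr1a (6.08 ± 0.90). Galnt18 was at 6.0 and Sprr1a at 6.78 without 3D replicate 3, which held the highest 3D level of each.

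Among the largest falls, Gem (chr4:11704447-11714993), a small GTPase that restrains calcium channels, went from 61.5, 67.8 and 59.2 CPM in 3D to 1.002 and 0.903 CPM in 3D-2D (log2 change -6.03 ± 0.23, adjusted p = 3.47e-14). Heyl (chr4:123233556-123249870), a transcription factor downstream of Notch, went from 96.3, 104 and 132 CPM to 1.17 and 1.15 CPM (log2 change -6.56 ± 0.80, adjusted p = 6.63e-07). Bmf (chr2:118528757-118549686), a death-promoting member of the BCL2 family that is tethered to the cytoskeleton, went from 39.8, 46.5 and 74.1 CPM to 0.794 and 0.401 CPM (log2 change -6.44 ± 0.59, adjusted p = 1.21e-08), and to -7.03 on the log2 scale without 3D-2D replicate 1. Each of these 3 genes was near 1 CPM or below in both 3D-2D libraries and above 39 CPM in every 3D library. Tgfbi (chr13:56609586-56639359), a matrix protein that TGF-beta induces, fell from 448, 472 and 313 CPM to 9.27 and 7.33 CPM (log2 change -5.63 ± 0.34, adjusted p = 2.12e-11). Igfbp5 (chr1:72858065-72874865), which binds insulin-like growth factors, fell from 2623, 2850.0 and 1503 CPM to 34.4 and 67.2 CPM (log2 change -5.52 ± 0.56, adjusted p = 4.95e-08). Dkk3, a secreted member of the Dickkopf family (chr7:112116019-112159482), fell from 264, 292 and 245 CPM to 6.56 and 4.06 CPM (log2 change -5.64 ± 0.47, adjusted p = 2.86e-09).

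The remaining leading falls were smaller against 3D replicate 3 alone than over all libraries compared, to differing degrees. Pdlim3, a protein of the Z-disc, was at 79.02, 88.97 and 42.8 CPM in 3D and 0.71 and 0.552 CPM in 3D-2D (log2 change -6.77 ± 1.43, adjusted p = 0.000427), and Gas1, a growth arrest protein that binds hedgehog, at 159, 189.6 and 89.3 CPM and 3.47 and 3.01 CPM (log2 change -5.49 ± 0.72, adjusted p = 1.72e-06). Htra3, a secreted serine protease, changed by -6.06 ± 0.82 on the log2 scale and Fbln7, a fibulin, by -5.14 ± 0.40. Against 3D replicate 3 alone Pdlim3 was at -6.06, Gas1 at -4.79, Htra3 at -4.37 and Fbln7 at -4.41 on the log2 scale. Lum, the collagen-binding proteoglycan lumican, was at 319.5, 350.1 and 15.2 CPM and 1.29 and 2.91 CPM (log2 change -6.78 ± 1.58, adjusted p = 0.00108). Atp6v0d2, a subunit of the proton pump, was at 224, 162 and 9.47 CPM and 4.3 and 1.86 CPM (log2 change -5.40 ± 1.23, adjusted p = 0.000889). In the last 2 genes 3D replicate 3 was far below the rest of its group, as it was for the macrophage markers, whose part in these values was not tested. Against it alone Lum was at -2.88 and Atp6v0d2 at -1.61 on the log2 scale, neither called. Leaving out 1 library moved Lum to -7.45 (without 3D-2D replicate 2), and Atp6v0d2 to -6.13 (without 3D-2D replicate 1) and -4.78 (without 3D replicate 1).

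**Figure D2:**
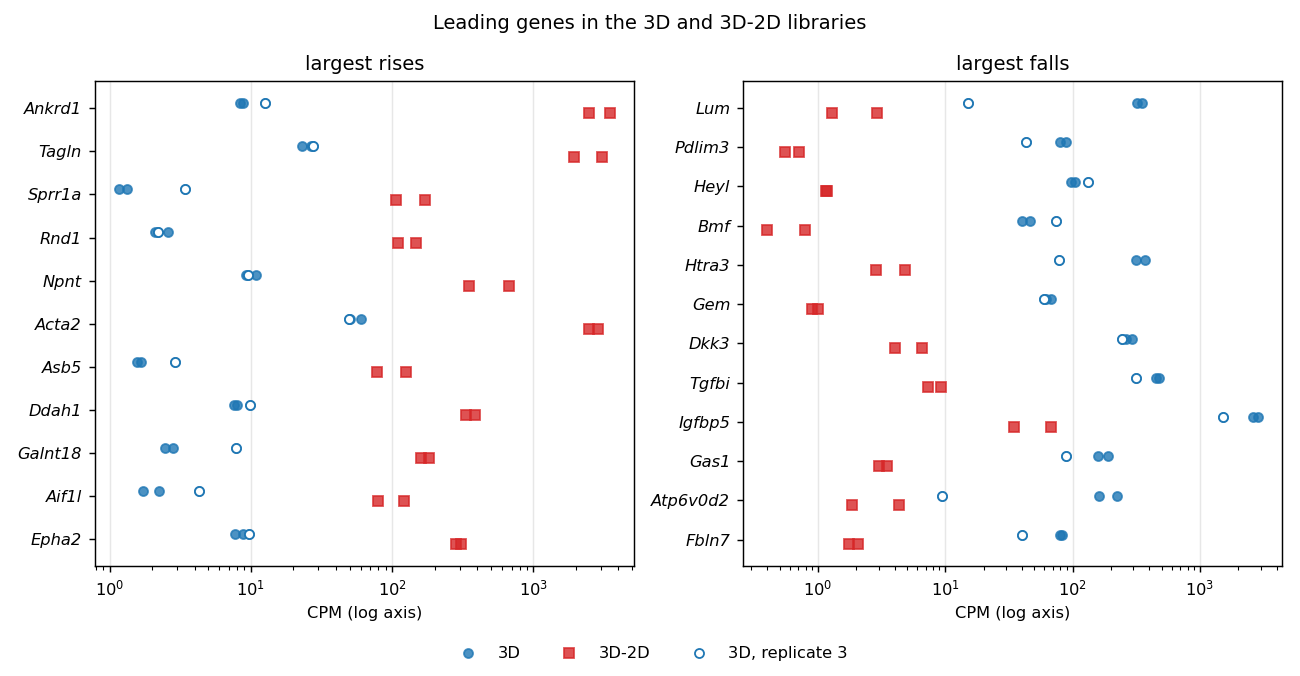
Levels of 11 of the 12 genes with the largest rises (left) and the 12 with the largest falls (right) in each library, in CPM on a log axis. Circles are 3D libraries, the open circle 3D replicate 3, and squares 3D-2D libraries. The groups are separate in every gene, as the rule for choosing the genes required. The open circle lies towards the 3D-2D libraries for Lum and Atp6v0d2.

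Contractile and actin cytoskeleton genes rose together. Of 34 members, 28 rose and 2 fell, with a median log2 change of 1.94 against -0.02 for all genes. The counts were 29 and 2 without 3D replicate 3 and 28 and 2 against it alone. Lmod1, leiomodin 1, which nucleates actin filaments in smooth muscle, rose from 0.762, 0.43 and 0.729 CPM to 38.9 and 41.6 CPM (log2 change 5.95 ± 0.63, adjusted p = 1e-07). Actg2, the gamma smooth muscle actin, rose from 0.355, 0.286 and 0.347 CPM to 22.7 and 24.8 CPM (log2 change 6.13 ± 0.76, adjusted p = 1.39e-06). Cnn1, calponin 1, was at 0, 0.382 and 0.0694 CPM in 3D, with no read in 1 library, and at 15.9 and 15.1 CPM in 3D-2D (log2 change 6.66 ± 0.86, adjusted p = 1.33e-06; 8.31 without 3D replicate 2). These 3 smooth muscle genes were almost silent in 3D. The widely expressed actins changed less: Actb was at 2497, 2121 and 873 CPM and 6449 and 7009.9 CPM (log2 change 1.88 ± 0.27, adjusted p = 4.54e-06), and Actg1 at 1918, 1696 and 1268 CPM and 4389 and 5167 CPM (log2 change 1.55 ± 0.19, adjusted p = 8.28e-07). Myl9 was at 6.8, 8.07 and 4.65 CPM and 237 and 193 CPM (log2 change 5.05 ± 0.43, adjusted p = 5.07e-09), so a regulatory light chain of myosin rose alongside. Of the smooth muscle and pericyte markers, a list fixed to read other cell types, 4 of 10 rose and 4 fell, and its summed level was 155, 159 and 234 CPM in 3D and 305 and 288 CPM in 3D-2D. Its median log2 change was 0.30, or 1.07 without 3D replicate 3 and -0.50 against it alone. Cnn1 belongs to both lists, and the part of such cells in the rise of contractile genes was not tested.

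The regulators upstream of these genes mostly moved in the same direction by smaller amounts. Of 21 SRF, MRTF and actomyosin regulators, 14 rose and 2 fell (median log2 change 0.72). Srf itself was at 63.6, 54.3 and 34.3 CPM in 3D and 172 and 199 CPM in 3D-2D (log2 change 1.87 ± 0.20, adjusted p = 7.12e-08), and the MRTF-A gene Mkl1 at 63.3, 55.4 and 53.9 CPM and 112 and 129 CPM (log2 change 1.06 ± 0.12, adjusted p = 2.89e-07). Rock2, a kinase that drives actomyosin contraction, was at 154, 148 and 171 CPM and 446 and 437 CPM (log2 change 1.49 ± 0.25, adjusted p = 4.04e-05). The GTPase gene Rhoa rose by 0.69 ± 0.10 and the actin-severing cofilin gene Cfl1 by 1.02 ± 0.17 on the log2 scale. All 5 genes had higher values in both 3D-2D libraries than in any 3D library, as did 36.8% of all genes tested.

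YAP and TEAD components and targets were called higher in 21 of 37 cases and lower in 3, with a median log2 change of 0.62. Ctgf, a matricellular protein and a standard YAP target, was at 262, 262 and 245 CPM in 3D and 5318 and 7525 CPM in 3D-2D (log2 change 4.65 ± 0.35, adjusted p = 6.94e-10). Amotl2 was at 39, 35.1 and 19.95 CPM and 557 and 605 CPM (log2 change 4.21 ± 0.19, adjusted p = 2.19e-13). Crim1 was at 40.2, 36.5 and 52.2 CPM and 503 and 562 CPM (log2 change 3.63 ± 0.17, adjusted p = 3.51e-13). In each of these genes, whose GGAATG elements are shown above except for Ctgf, the 3D libraries were within 2-fold of each other. Cyr61 was uneven in 3D, at 383, 355 and 22 CPM with replicate 3 far below, and stood at 1979 and 2371 CPM in 3D-2D (log2 change 3.10 ± 0.60, adjusted p = 0.000161). Its log2 change was 6.62 against 3D replicate 3 alone. Of the coactivators, Yap1 rose from 107, 120.2 and 168 CPM to 235 and 246 CPM (log2 change 0.87 ± 0.13, adjusted p = 4.68e-06), and Wwtr1, which encodes TAZ, was at 132, 146 and 212 CPM and 168 and 173 CPM (log2 change 0.06 ± 0.19, adjusted p = 0.8). For Wwtr1 the sign depended on the library left out (-0.08 and -0.02 without 3D replicates 1 and 2, -0.32 against 3D replicate 3 alone, none called). Tead4 rose by 4.06 ± 0.50 from a low level of 0.508, 1.003 and 0.312 CPM.

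Integrin and focal adhesion genes were called higher in 18 of 34 cases and lower in 4 (median log2 change 0.84). Itgb1, the beta-1 chain shared by most matrix receptors, was at 814, 818 and 1054 CPM in 3D and 2046 and 2371 CPM in 3D-2D (log2 change 1.30 ± 0.14, adjusted p = 7.63e-08). Tln1, talin, which ties integrin tails to actin, was at 761, 645 and 507 CPM and 1722 and 1861 CPM (log2 change 1.49 ± 0.16, adjusted p = 6.86e-08), and Vcl at 155, 153 and 158 CPM and 762 and 849 CPM (log2 change 2.37 ± 0.26, adjusted p = 1.43e-07). Fermt2, kindlin-2, which activates integrins together with talin, was at 80.5, 90.1 and 86.2 CPM and 392 and 497 CPM (log2 change 2.38 ± 0.10, adjusted p = 2.19e-13). Thus the beta chain and 3 proteins on its inner side rose together. Lims2, an adaptor of the integrin-linked kinase, rose by 4.74 ± 0.35, and the laminin receptor chain Itga3 by 2.57 ± 0.33, or 3.18 without 3D replicate 3.

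Caveolae are small membrane pits that flatten when a cell is stretched. Of 8 caveola genes tested, 7 rose and 0 fell, with a median log2 change of 1.42. Cav1, the main coat protein, was at 6.04, 7.55 and 16.6 CPM in 3D and 202 and 127 CPM in 3D-2D (log2 change 4.02 ± 0.61, adjusted p = 1.23e-05). Sdpr, the coat protein cavin-2, was at 9.7, 9.93 and 21.3 CPM and 434 and 442 CPM (log2 change 5.0 ± 0.50, adjusted p = 4.96e-08), and Ptrf, cavin-1, at 139, 163 and 222 CPM and 677 and 515 CPM (log2 change 1.77 ± 0.23, adjusted p = 1.17e-06). Cav2 rose by 1.60 ± 0.39, Pacsin2 by 1.25 ± 0.20 and Ehd2, which holds caveolae at the surface, by 1.18 ± 0.15 on the log2 scale. Pacsin3 rose by 0.63 ± 0.24 (adjusted p = 0.0325) and lost its call when any 1 library other than 3D replicate 3 was left out, with values from 0.50 (without 3D replicate 2) and 0.53 (without 3D replicate 1) to 0.61 and 0.65 (without 3D-2D replicates 2 and 1) and 0.22 against 3D replicate 3 alone. Prkcdbp, cavin-3, did not pass the test (log2 change 0.18 ± 0.17, adjusted p = 0.381; -0.04 without 3D-2D replicate 1).

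Markers of myofibroblasts and of matrifibrocytes, the fibroblasts of the late scar, were read as a single list and split. Of 21 tested, 10 rose and 5 fell (median log2 change 1.37). The falling count was 2, 3 and 3 without 3D-2D replicate 1, 3D-2D replicate 2 and 3D replicate 2, and 2 against 3D replicate 3 alone. Besides Acta2 and Ddah1, the endothelin precursor gene Edn1 was at 1.17, 1.15 and 0.521 CPM in 3D and 23.6 and 30.4 CPM in 3D-2D (log2 change 4.86 ± 0.47, adjusted p = 2.39e-08), and Inhba, the activin A chain, at 10.9, 13.6 and 43.1 CPM and 418 and 578 CPM (log2 change 4.46 ± 0.48, adjusted p = 1.28e-07; 5.35 without 3D replicate 3). Postn, periostin, a matrix protein of activated cardiac fibroblasts, went the other way, from 1561, 1734 and 906 CPM to 701 and 702 CPM (log2 change -1.0 ± 0.33, adjusted p = 0.0132). Its call ended without either 3D-2D library (-1.0 and -0.99 without replicates 1 and 2) and without 3D replicate 2 (-0.82), and it was at -0.38, not called, against 3D replicate 3 alone. Cilp, a matrix protein of the late scar, fell from 61.8, 68.7 and 6.04 CPM to 0.877 and 0.201 CPM (log2 change -6.34 ± 1.14, adjusted p = 7.75e-05). Without 3D-2D replicate 1 Cilp was at -7.76, and without 3D-2D replicate 2 at -5.68.

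Resting fibroblast markers mostly fell: 16 of 27 were lower and 2 higher, with a median log2 change of -2.05, and 14 and 2 with a median of -1.34 against 3D replicate 3 alone. Cygb, cytoglobin, an oxygen-binding protein of quiescent stromal cells, went from 623, 716 and 487 CPM in 3D to 31.2 and 38.5 CPM in 3D-2D (log2 change -4.13 ± 0.46, adjusted p = 1.8e-07). Scara5, a ferritin receptor of adventitial fibroblasts, went from 10.1, 12.8 and 5.03 CPM to 0.251 and 0.1 CPM (log2 change -5.62 ± 0.56, adjusted p = 3.51e-08; -6.42 without 3D-2D replicate 1). Dpt, dermatopontin, went from 299.9, 354 and 69.8 CPM to 7.23 and 14.3 CPM (log2 change -4.49 ± 0.81, adjusted p = 8.38e-05), and Pi16, a marker of adventitial stromal cells, from 30.3, 37.9 and 7.64 CPM to 1.002 and 1.25 CPM (log2 change -4.48 ± 0.91, adjusted p = 0.000293). In all 4 genes the lowest 3D library still lay above both 3D-2D libraries, as it did for 33.8% of all genes tested. The rule that named genes favoured called members with large changes, which makes such a gap likely. Gsn, the actin-severing gelsolin, did not pass (log2 change -0.60 ± 0.29, adjusted p = 0.0862).

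Of 42 fibroblast and mesenchymal transcription factors, 8 rose and 18 fell. The rising count was 5 without 3D-2D replicate 2, and the median of -0.51 became 0.14 against 3D replicate 3 alone. Klf5, a zinc finger factor of growing and injured tissue, was at 0.355, 0.286 and 0.243 CPM in 3D and 11.03 and 13.9 CPM in 3D-2D (log2 change 5.38 ± 0.67, adjusted p = 7.88e-07). Fosl1, the AP-1 subunit FRA-1, was at 1.83, 2.77 and 2.19 CPM and 29.8 and 34.2 CPM (log2 change 3.82 ± 0.57, adjusted p = 9.17e-06), and Maff, a small MAF factor, at 24.99, 21.9 and 10.3 CPM and 111 and 149 CPM (log2 change 2.77 ± 0.30, adjusted p = 1.19e-07). Tcf21, which marks the cardiac fibroblast lineage, fell from 46.8, 51.9 and 92.2 CPM to 18.5 and 22.98 CPM (log2 change -1.62 ± 0.37, adjusted p = 0.000932), and Tbx20 from 472, 499.7 and 803 CPM to 255 and 262 CPM (log2 change -1.19 ± 0.26, adjusted p = 0.000498). Meox1, a switch factor of activated cardiac fibroblasts, was low in both groups, at 0.711, 0.812 and 1.15 CPM and 2.26 and 2.41 CPM (log2 change 1.37 ± 0.70, adjusted p = 0.0977). Runx1 did not pass (log2 change -0.09 ± 0.29, adjusted p = 0.821) and its sign depended on the library left out (0.10 without 3D replicate 1, 0.03 without 3D replicate 2 and 0.02 without 3D-2D replicate 1, and 0.65 against 3D replicate 3 alone).

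Immediate early genes, which respond within minutes to serum or handling, turned on which 3D library served as the comparison. Of 22 tested, 2 rose and 10 fell (median log2 change -1.0). Without 3D replicate 3 2 rose and 13 fell, with a median of -1.31. Against 3D replicate 3 alone 11 rose and 2 fell, with a median of 1.17. The falling count was also 5 and 4 without 3D-2D replicates 1 and 2, and 6 and 5 without 3D replicates 1 and 2. Fos was at 446, 528 and 45.8 CPM in 3D and 35.1 and 32.7 CPM in 3D-2D (log2 change -3.33 ± 0.73, adjusted p = 0.000578; -0.44 against 3D replicate 3 alone, not called). Egr1 was at 954, 1092 and 94.4 CPM and 289 and 353 CPM (log2 change -1.15 ± 0.58, adjusted p = 0.0952), between the 3D libraries. It was called lower without 3D replicate 3 (-1.67) and higher against it alone (1.76). Nr4a3, a nuclear receptor induced by cyclic AMP, was even across the 3D libraries, at 36.1, 29.6 and 30.2 CPM, and lower in 3D-2D at 4.55 and 4.52 CPM (log2 change -2.81 ± 0.74, adjusted p = 0.00301).

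**Figure D3:**
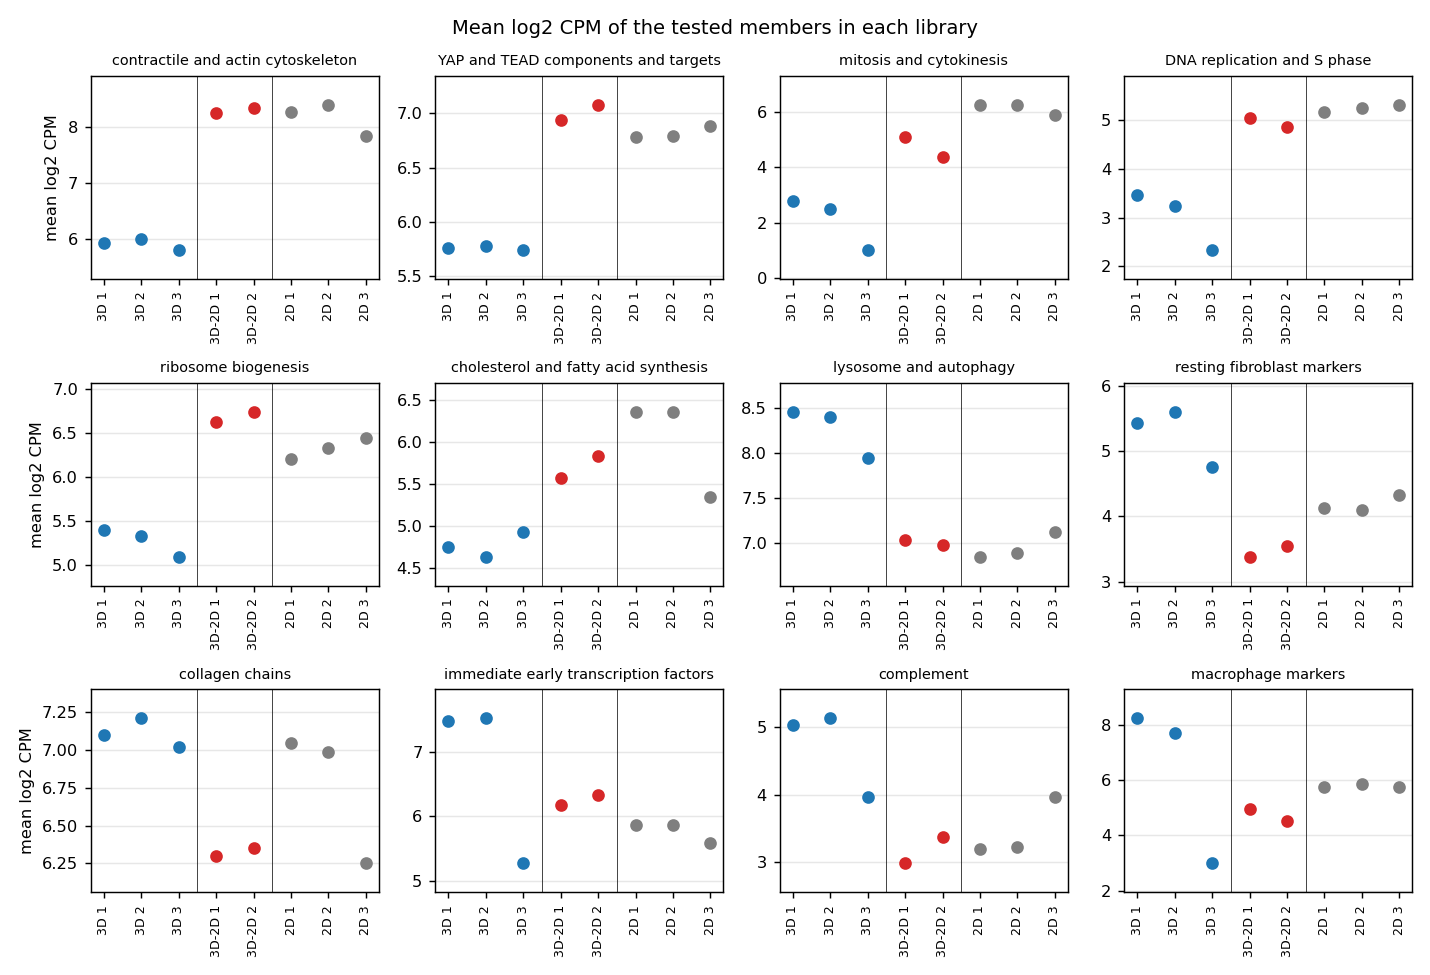
Mean log2 CPM over the tested members of 12 gene lists in each 3D (blue), 3D-2D (red) and 2D (grey) library. The 3D-2D libraries lie above all 3D libraries for the contractile, YAP and TEAD, mitosis, replication, ribosome biogenesis and cholesterol lists and below all of them for the lysosome, resting fibroblast, collagen and complement lists. For immediate early and macrophage genes 3D replicate 3 lies below both.

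Collagen chains were lower more often than higher, although the type I chains, Col1a1 and Col1a2, did not pass the test. Of 29, 16 fell and 3 rose (median log2 change -0.65). The falling count was 7, 9 and 10 without 3D-2D replicate 1, 3D-2D replicate 2 and 3D replicate 2, and the rising count was 5 without 3D replicate 3. The number lower was 9 against 3D replicate 3 alone. Col1a1, a main chain of scar collagen whose levels are given above, was at -0.65 ± 0.37 on the log2 scale (adjusted p = 0.138). Col1a2, its partner chain, was at 6831, 7673 and 5463 CPM in 3D and 4464 and 4574 CPM in 3D-2D (log2 change -0.56 ± 0.29, adjusted p = 0.107). Both 3D-2D libraries lay below every 3D library for these 2 genes, as they did for 33.8% of all genes tested. Col3a1 fell from 8837, 9929.5 and 4004 CPM to 1654 and 2279 CPM (log2 change -1.95 ± 0.74, adjusted p = 0.0295), and its call ended without any 1 library except 3D replicate 3 (-1.73 and -2.19 without 3D-2D replicates 1 and 2, -1.83 and -1.71 without 3D replicates 1 and 2) and against 3D replicate 3 alone (-1.03). Col27a1, a fibrillar chain of cartilage, was at 61.4, 65.8 and 32.4 CPM and 6.43 and 7.02 CPM (log2 change -2.98 ± 0.41, adjusted p = 2.62e-06). Col6a3, a chain of beaded filaments, was at 340.4, 351 and 84.96 CPM and 50.5 and 24.7 CPM (log2 change -2.78 ± 0.52, adjusted p = 0.000128; -3.39 without 3D-2D replicate 1 and -1.18, not called, against 3D replicate 3 alone). Col4a1, a basement membrane chain, did not pass (log2 change 0.16 ± 0.16, adjusted p = 0.415), though without 3D replicate 3 it was called at 0.44.

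Enzymes that trim and crosslink collagen rose more often than they fell. Of 28 such genes, 11 rose and 4 fell (2 without 3D-2D replicate 1), with a median log2 change of 0.31. Lox, lysyl oxidase, which crosslinks collagen and elastin, was at 211, 236 and 772 CPM in 3D and 2852 and 4269 CPM in 3D-2D (log2 change 3.13 ± 0.49, adjusted p = 1.41e-05; 4.0 without 3D replicate 3). Its relative Loxl3 was at 32.5, 39.8 and 66.9 CPM and 246 and 249 CPM (log2 change 2.41 ± 0.23, adjusted p = 1.65e-08). Adamts14, which removes the amino propeptide of procollagen, was at 4.37, 5.59 and 8.57 CPM and 66.3 and 82.7 CPM (log2 change 3.58 ± 0.29, adjusted p = 1.45e-09). Tll1, a tolloid protease that removes the carboxy propeptide, was at 0.965, 1.1 and 12.3 CPM and 114 and 133 CPM (log2 change 4.64 ± 0.93, adjusted p = 0.000253; 6.89 without 3D replicate 3). Sparc, a collagen chaperone, did not pass (log2 change 0.21 ± 0.23, adjusted p = 0.443).

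Elastic fibre and fibulin genes were called lower in 10 of 18 cases and higher in 4 (1 without 3D-2D replicate 2; median log2 change -1.0). Eln, tropoelastin, fell from 123, 146 and 68.2 CPM to 3.22 and 5.67 CPM (log2 change -4.67 ± 0.90, adjusted p = 0.000174), and Fbln1, fibulin-1, from 916, 1035 and 202 CPM to 45.03 and 68.1 CPM (log2 change -3.66 ± 0.65, adjusted p = 6.4e-05). Mfap2, a microfibril protein, fell from 18.4, 24.6 and 20.5 CPM to 1.17 and 0.652 CPM (log2 change -4.51 ± 0.71, adjusted p = 1.57e-05). Fbn1, fibrillin-1, the core of the microfibril, fell from 2741, 2719 and 3000.0 CPM to 1568 and 1572 CPM (log2 change -0.85 ± 0.22, adjusted p = 0.00236). Fbln2, fibulin-2, rose (log2 change 0.91 ± 0.23, adjusted p = 0.00177) but was at 2962, 3379 and 6982 CPM in 3D, with replicate 3 near the 3D-2D values of 8372 and 8361 CPM. It was at 0.25 and not called against that library alone. Among small leucine-rich proteoglycans 4 of 12 fell and 0 rose (5 and 0 without 3D replicate 3, 2 and 1 against it alone). Dcn, decorin, was at 1068, 1209 and 292 CPM and 118 and 239 CPM (log2 change -2.26 ± 0.97, adjusted p = 0.0521; -2.67 and called without 3D replicate 3).

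Matricellular and adhesive glycoproteins went both ways, with 8 of 35 higher and 13 lower. Thbs1, thrombospondin-1, an activator of latent TGF-beta, was at 1667, 1700.0 and 1420.3 CPM in 3D and 10986 and 15672 CPM in 3D-2D (log2 change 3.06 ± 0.29, adjusted p = 1.82e-08). Tnc, tenascin-C, a glycoprotein of wounds, was at 319, 336 and 321 CPM and 1834 and 2475 CPM (log2 change 2.73 ± 0.40, adjusted p = 6.4e-06). Tnxb, tenascin-X, which is bound to collagen in quiet connective tissue, fell from 661, 645 and 372 CPM to 16.7 and 15.7 CPM (log2 change -5.11 ± 0.60, adjusted p = 4.12e-07), and Sparcl1 from 83.3, 94.3 and 20.1 CPM to 2.84 and 2.81 CPM (log2 change -4.54 ± 0.61, adjusted p = 2.47e-06). Thus the tenascins C and X moved in opposite directions. Fn1, fibronectin, did not pass (log2 change 0.25 ± 0.21, adjusted p = 0.337), with 3D replicate 3 above the 3D-2D libraries and the others below (9321, 9452 and 18638 CPM against 14759 and 14844 CPM). Without 3D replicate 3 it was called at 0.66. Of the hyaluronan genes, Cemip, which starts the breakdown of hyaluronan, rose from 39.5, 39.8 and 30.3 CPM to 664 and 912 CPM (log2 change 4.43 ± 0.31, adjusted p = 2.4e-10) and the receptor gene Cd44 from 227, 193 and 175 CPM to 709 and 787 CPM (log2 change 1.91 ± 0.35, adjusted p = 9.18e-05). Vcan, the hyaluronan-binding proteoglycan versican, fell from 436, 444 and 548 CPM to 139.6 and 68.9 CPM (log2 change -2.19 ± 0.29, adjusted p = 1.9e-06; -2.79 without 3D-2D replicate 1), and the hyaluronidase gene Hyal1 by -2.47 ± 0.31 on the log2 scale.

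Among matrix proteases Mmp2 and Mmp11 fell, while the inhibitor genes Timp1 and Timp3 rose. Of 19 metalloproteinases and inhibitors, 8 fell (5 without 3D-2D replicate 2) and 4 rose (median log2 change -1.20, or -1.19 without 3D replicate 3 and -0.33 against it alone, where 6 fell and 3 rose). Mmp2, gelatinase A, the main gelatinase of fibroblasts, fell from 4121, 4613 and 2376 CPM to 262 and 248 CPM (log2 change -3.86 ± 0.30, adjusted p = 1.16e-09). Mmp11, stromelysin-3, fell from 738, 837 and 741 CPM to 27.8 and 23.9 CPM (log2 change -4.90 ± 0.22, adjusted p = 2.19e-13), and the membrane-bound Mmp15 from 5.74, 6.02 and 9.41 CPM to 0.877 and 0.502 CPM (log2 change -3.33 ± 0.50, adjusted p = 7.91e-06). The inhibitor gene Timp1 rose from 363, 422 and 437 CPM to 2307 and 3555 CPM (log2 change 2.85 ± 0.45, adjusted p = 1.9e-05), and Timp3, whose protein stays in the matrix, from 431, 487 and 429 CPM to 1386 and 1896 CPM (log2 change 1.87 ± 0.39, adjusted p = 0.000389). Timp2 did not pass (log2 change -0.42 ± 0.36, adjusted p = 0.33), nor did the stromelysin gene Mmp3 (log2 change -1.98 ± 1.10, adjusted p = 0.13). Of 24 Adam and Adamts genes, 9 fell and 3 rose, and the median log2 change of -0.48 was -0.48 without 3D replicate 3 and turned to 0.10 against it alone. Adamts15, an aggrecanase, was at 87.8, 99.5 and 24.1 CPM in 3D and at the edge of detection in 3D-2D, at 0.125 and 0.0502 CPM (adjusted p = 6.84e-06). Adam19 rose from 150.1, 167 and 283 CPM to 726 and 782 CPM (log2 change 1.91 ± 0.24, adjusted p = 8.09e-07).

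In the plasminogen system the inhibitor gene Serpinb2 and the urokinase receptor gene rose, and the gene of tissue-type activator fell. Of 12 genes, 6 rose and 4 fell (2 without 3D-2D replicate 1 and 2 against 3D replicate 3 alone). Serpinb2, an inhibitor of the activators, was at 0.711, 0.382 and 0.555 CPM in 3D and 173 and 485 CPM in 3D-2D (log2 change 9.21 ± 1.55, adjusted p = 5.12e-05; 8.28 without 3D-2D replicate 2). Plaur, the urokinase receptor, was at 39.5, 30.9 and 9.86 CPM and 129 and 153 CPM (log2 change 2.40 ± 0.43, adjusted p = 6.97e-05), and Thbd, thrombomodulin, at 16.9, 16 and 33.9 CPM and 167 and 168 CPM (log2 change 2.90 ± 0.47, adjusted p = 2.18e-05). Plat, tissue-type activator, fell from 62.5, 71.5 and 69.6 CPM to 36.4 and 21.1 CPM (log2 change -1.24 ± 0.25, adjusted p = 0.000206), and Serpine2, protease nexin-1, which inhibits thrombin, from 942, 1059 and 784 CPM to 180.2 and 271 CPM (log2 change -2.04 ± 0.24, adjusted p = 3.91e-07). The urokinase gene Plau was at 223, 156 and 6.004 CPM and 36.1 and 21.5 CPM (log2 change -2.15 ± 0.86, adjusted p = 0.0376), with 3D replicate 3 below both 3D-2D libraries. Its call ended without any single library other than 3D replicate 3 (from -2.57 without 3D-2D replicate 1 to -1.49 without 3D replicate 1; -1.82 without 3D-2D replicate 2 and -1.99 without 3D replicate 2), and it was called higher, at 2.26, against 3D replicate 3 alone.

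In the TGF-beta and activin pathway 11 of 34 genes rose and 9 fell, with counts of 6 and 5 without 3D-2D replicate 2 and 7 and 9 against 3D replicate 3 alone. The median log2 change was -0.01, and of all genes tested 28.8% rose and 27.7% fell, so the list as a whole was near the background. Among the ligands, Tgfb1 fell from 311, 293 and 301 CPM to 126 and 154 CPM (log2 change -1.10 ± 0.19, adjusted p = 3.77e-05) and Tgfb3 from 181, 203 and 214 CPM to 107 and 122 CPM (log2 change -0.80 ± 0.17, adjusted p = 0.000369). Tgfb2 did not pass (log2 change 0.48 ± 0.33, adjusted p = 0.222). Of the receptors, Tgfbr3, the coreceptor betaglycan, fell from 72.1, 75.03 and 77.2 CPM to 15.1 and 11.6 CPM (log2 change -2.48 ± 0.32, adjusted p = 1.47e-06), and Tgfbr1 did not pass (log2 change -0.74 ± 0.38, adjusted p = 0.101). Fst, follistatin, which traps activins, rose from 5.74, 7.07 and 6.04 CPM to 50.1 and 63.6 CPM (log2 change 3.18 ± 0.24, adjusted p = 6.24e-10), and Smurf2, a ubiquitin ligase that brings receptors and SMADs to degradation, from 78.2, 78.99 and 116 CPM to 538 and 671 CPM (log2 change 2.73 ± 0.49, adjusted p = 8.22e-05). Thus 2 of the 3 ligand genes of TGF-beta were lower while Inhba (4.46 ± 0.48, or 5.35 without 3D replicate 3) and Fst were higher. In the BMP pathway 5 of 26 rose and 8 fell (5 without 3D-2D replicate 1). The BMP counts stand beside the same shares over all genes. Bmpr1b, a type I receptor, rose from 0.355, 0.478 and 0.139 CPM to 8.73 and 10.2 CPM (log2 change 4.89 ± 0.43, adjusted p = 6.47e-09).

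Notch pathway genes were called lower in 8 of 16 cases and higher in 2 (median log2 change -1.04, or -1.02 without 3D replicate 3 and -0.33 against it alone). Besides Heyl, the target gene Hey1 fell from 8.23, 9.5 and 3.61 CPM to 0.418 and 0.753 CPM (log2 change -3.60 ± 0.80, adjusted p = 0.000631), and the receptor gene Notch2 from 336, 324 and 392 CPM to 150.2 and 155 CPM (log2 change -1.20 ± 0.18, adjusted p = 8.9e-06). Hey2, the third gene of that target family, rose from 0.203, 0.43 and 0.243 CPM to 3.3 and 4.32 CPM (log2 change 3.68 ± 0.59, adjusted p = 2.68e-05). In the Wnt pathway 12 of 33 fell and 7 rose, with a rising count of 4 and 4 without 3D-2D replicates 1 and 2 and 4 against 3D replicate 3 alone. Ctnnb1, beta-catenin, fell from 967, 1021 and 1675 CPM to 513 and 487 CPM (log2 change -1.29 ± 0.18, adjusted p = 4.25e-06). The ligand gene Wnt2 rose from 0.0508, 0.143 and 0.59 CPM to 9.52 and 13.9 CPM (log2 change 5.33 ± 0.96, adjusted p = 7.83e-05; 6.78 without 3D replicate 3). Among insulin-like growth factor genes 10 of 18 fell and 3 rose. Igf1 was at 511, 376 and 111 CPM and 42.1 and 35.02 CPM (log2 change -3.11 ± 0.64, adjusted p = 0.000355; -1.53, not called, against 3D replicate 3 alone). The falling count was 6 and 4 without 3D-2D replicates 1 and 2 and 3 against 3D replicate 3 alone.

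Of 28 PDGF, FGF, EGF and neurotrophin ligands and receptors, 14 rose and 5 fell (median log2 change 0.83, or 1.54 without 3D replicate 3 and 1.14 against it alone). Hbegf, heparin-binding EGF-like growth factor, was at 19.3, 23.6 and 22.2 CPM in 3D and 225 and 322 CPM in 3D-2D (log2 change 3.65 ± 0.59, adjusted p = 2.36e-05). Ereg, epiregulin, was at 21.7, 25.4 and 2.36 CPM and 303 and 462 CPM (log2 change 4.54 ± 0.64, adjusted p = 4.75e-06), and Bdnf, a neurotrophin, at 8.89, 10.3 and 12.6 CPM and 125 and 138 CPM (log2 change 3.63 ± 0.19, adjusted p = 3.24e-12). Axl, a receptor kinase for Gas6, rose from 424, 471 and 525 CPM to 1702 and 1782 CPM (log2 change 1.88 ± 0.13, adjusted p = 2.73e-10), whereas its ligand gene Gas6 fell from 1073, 1122 and 492 CPM to 131 and 135 CPM (log2 change -2.75 ± 0.42, adjusted p = 1.3e-05). Receptor and ligand thus moved in opposite directions. Of 19 angiogenic factors 3 rose and 6 fell, with a median of -0.30 that was -0.51 without 3D replicate 3 and 0.02 against it alone. Adm, the vasodilator adrenomedullin, rose from 13.4, 17.2 and 22.8 CPM to 131 and 109 CPM (log2 change 2.75 ± 0.24, adjusted p = 6.06e-09), and Angpt2 fell from 12.4, 16.8 and 9.96 CPM to 2.3 and 1.25 CPM (log2 change -2.86 ± 0.34, adjusted p = 3.36e-07). The guidance gene Sema3e was at 0.508, 0.621 and 3.3 CPM and 124 and 124 CPM (log2 change 6.31 ± 0.86, adjusted p = 2.8e-06; 7.76 without 3D replicate 3), and the semaphorin receptor gene Plxna4 at 83.8, 82.4 and 103 CPM and 9.02 and 11.1 CPM (log2 change -3.16 ± 0.40, adjusted p = 1.12e-06).

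Genes of the angiotensin and endothelin systems and of cyclic nucleotide signalling were called lower in 11 of 24 cases and higher in 4 (median log2 change -1.08). Agt, angiotensinogen, the source of all angiotensins, went from 91.7, 103 and 113 CPM in 3D to 2.21 and 3.66 CPM in 3D-2D (log2 change -5.13 ± 0.59, adjusted p = 3.47e-07). Ace, the angiotensin-converting enzyme, went from 329, 349.6 and 857 CPM to 43.4 and 30.8 CPM (log2 change -3.79 ± 1.02, adjusted p = 0.00349; -3.19 without 3D replicate 3, the highest library). Ednra, the endothelin A receptor, went from 23.2, 26.6 and 17.5 CPM to 0.835 and 0.251 CPM (log2 change -5.31 ± 0.63, adjusted p = 5.04e-07; -6.44 without 3D-2D replicate 1). Edn1, the ligand gene of that receptor, rose, as given above. Among ion channel and calcium genes 12 of 25 fell and 4 rose, with a median of -0.86, or -0.31 against 3D replicate 3 alone. Cacna1h, a T-type calcium channel, went from 23.9, 24.5 and 21.8 CPM to 0.251 and 0.351 CPM (log2 change -6.26 ± 0.60, adjusted p = 1.82e-08), and Atp2b4, a calcium pump of the plasma membrane, from 19.9, 20.6 and 14.7 CPM to 1.5 and 0.903 CPM (log2 change -3.91 ± 0.73, adjusted p = 0.00011). Both were below 2 CPM in each 3D-2D library.

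Cytokine, chemokine and prostaglandin genes were called higher in 7 of 38 cases and lower in 11. The counts were 4 and 6 without 3D-2D replicate 2, 4 and 7 without 3D replicate 1, and the falling count was 6 without 3D-2D replicate 1 and 4 against 3D replicate 3 alone. The median log2 change was -0.34, -0.51 without 3D replicate 3 and 0.43 against it alone. Ptgs2, the inducible cyclooxygenase COX-2, was at 72.6, 75.6 and 24.6 CPM in 3D and 756 and 1305 CPM in 3D-2D (log2 change 4.16 ± 0.69, adjusted p = 3.24e-05). Csf1, the growth factor of macrophages, was at 269, 304 and 387 CPM and 4213 and 4898 CPM (log2 change 3.83 ± 0.29, adjusted p = 6.01e-10). Ptgds, prostaglandin D synthase, fell from 7.47, 9.31 and 4.86 CPM to 0.209 and 0.15 CPM (log2 change -5.25 ± 0.54, adjusted p = 5.57e-08). Il6 did not pass (log2 change 0.61 ± 0.93, adjusted p = 0.598), nor did Ccl2 (log2 change -1.14 ± 0.82, adjusted p = 0.246), whose 3D libraries lay on both sides of 3D-2D (84.3, 59.8 and 5.1 CPM against 23.6 and 21.5 CPM) and which was called lower without 3D replicate 3 (-1.67). Complement genes were called lower in 12 of 18 cases and higher in 0 (median log2 change -1.92), 5 without 3D-2D replicate 1 and 5 (median -0.80) against 3D replicate 3 alone. Clu, clusterin, which curbs the final complement complex, fell from 133, 152 and 93.1 CPM to 9.4 and 13.6 CPM (log2 change -3.46 ± 0.73, adjusted p = 0.000424). Interferon response and antigen presentation genes were called lower in 22 of 35 cases and higher in 1 (median -1.31), with 11 lower without 3D-2D replicate 1 and 11 (median -0.73) against 3D replicate 3 alone. Tapbp, which loads peptides on MHC class I, fell from 323, 326 and 285 CPM to 84.8 and 111 CPM (log2 change -1.67 ± 0.26, adjusted p = 1.4e-05). B2m fell from 769, 749 and 578 CPM to 395 and 463 CPM (log2 change -0.70 ± 0.24, adjusted p = 0.0172), and was not called in the absence of 3D-2D replicate 1 (-0.59) or against 3D replicate 3 alone (-0.44). The summed macrophage markers given above were also lower in 3D-2D than in 3D replicates 1 and 2, and their part in these 3 lists was not tested.

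Nearly all tested genes of DNA replication and mitosis rose. Of 34 replication genes, 31 rose and 0 fell (median log2 change 1.84), and of 34 mitosis and cytokinesis genes, 33 rose and 0 fell (median 2.70). The medians against 3D replicate 3 alone were 2.42 and 4.0, and that library held the lowest mean level of both lists. Rrm1, of ribonucleotide reductase, which makes DNA building blocks, was at 56.2, 57.1 and 58.4 CPM in 3D and 264 and 245 CPM in 3D-2D (log2 change 2.15 ± 0.26, adjusted p = 5.51e-07), and Uhrf1, which maintains DNA methylation behind the fork, at 12.7, 9.6 and 3.02 CPM and 72.97 and 68.9 CPM (log2 change 3.08 ± 0.51, adjusted p = 2.89e-05). Anln, anillin, a scaffold of the cleavage furrow, was at 10.3, 7.98 and 2.95 CPM and 118 and 81.98 CPM (log2 change 3.84 ± 0.43, adjusted p = 2.23e-07). Prc1 was at 7.92, 7.83 and 2.6 CPM and 74.7 and 42.9 CPM (log2 change 3.28 ± 0.42, adjusted p = 1.2e-06), and Cdc20 at 4.77, 4.25 and 2.22 CPM and 42.3 and 23.2 CPM (log2 change 3.14 ± 0.32, adjusted p = 4.73e-08). In each of these mitosis genes 3D-2D replicate 1 was the higher of the pair and 3D replicate 3 the lowest of its group. Top2a, the topoisomerase that separates sister DNA, was at 28.5, 20.2 and 3.82 CPM and 143 and 93.4 CPM (log2 change 2.77 ± 0.52, adjusted p = 0.000121). Mki67, the antigen Ki-67, was at 42, 29.6 and 2.01 CPM and 173 and 95.7 CPM (log2 change 2.46 ± 0.75, adjusted p = 0.00837; 1.98, not called, without 3D-2D replicate 1 and 3.10 without 3D replicate 1). Pcna did not pass (log2 change 0.21 ± 0.41, adjusted p = 0.687), and its sign turned without 3D replicate 3 (-0.18).

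The regulators of entry into the cycle went both ways. Of 21 CDK inhibitors, cyclins and related genes, 9 rose and 8 fell, the latter 5, 4 and 5 without 3D-2D replicate 1, 3D-2D replicate 2 and 3D replicate 3. Ccnd2, cyclin D2, was at 140.1, 158 and 377 CPM in 3D and 1272 and 1236 CPM in 3D-2D (log2 change 2.48 ± 0.30, adjusted p = 5.64e-07; 3.08 without 3D replicate 3). Ccnd1, cyclin D1, was at 127, 85.8 and 97.1 CPM and 728 and 366 CPM (log2 change 2.40 ± 0.89, adjusted p = 0.026), and was not called without 3D-2D replicate 1 (1.83), 3D replicate 2 (2.28) or 3D replicate 3 (2.37), or against 3D replicate 3 alone (2.49). Mycn rose from 0.355, 0.0478 and 0.347 CPM to 12.5 and 11.6 CPM (log2 change 5.52 ± 0.58, adjusted p = 7.65e-08). The inhibitor gene Cdkn1c fell from 2.18, 2.2 and 2.12 CPM to 0.668 and 0.401 CPM (log2 change -1.99 ± 0.47, adjusted p = 0.00107). Cdkn1a, which encodes p21, fell by a small amount (log2 change -0.37 ± 0.14, adjusted p = 0.0225) and lost its call without either 3D-2D library (-0.38 and -0.36 without replicates 1 and 2) and without 3D replicate 3 (-0.28). In the BCL2 family 6 of 16 fell and 4 rose, while 27.7% of all genes tested fell and 28.8% rose. Bcl2l11, the death-promoting BIM, fell from 61.04, 55.9 and 84.3 CPM to 7.98 and 6.87 CPM (log2 change -3.17 ± 0.31, adjusted p = 2.39e-08), and Bcl2l1, the survival protein BCL-XL, rose from 104, 89.7 and 79.7 CPM to 205 and 190.0 CPM (log2 change 1.12 ± 0.22, adjusted p = 0.000201). Among the members named here, Bmf (log2 change -6.44 ± 0.59, or -7.03 without 3D-2D replicate 1) and Bcl2l11, which promote death, fell. Bcl2l1, which opposes it, rose. The other called members of the family were not sorted by their effect on death.

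Ribosome genes rose as well. Of 20 genes of ribosome biogenesis, 19 rose and 0 fell (median log2 change 1.31), and of 30 ribosomal protein genes, 29 rose and 0 fell (median 0.63). The ribosomal protein count was 20 against 3D replicate 3 alone. Nop56, a core protein of box C/D snoRNPs, was at 41.03, 37.3 and 29.05 CPM in 3D and 166 and 192 CPM in 3D-2D (log2 change 2.32 ± 0.19, adjusted p = 2.67e-09), and Dkc1, dyskerin, which makes pseudouridine in ribosomal RNA, at 12.6, 11.99 and 9.41 CPM and 57.98 and 61.6 CPM (log2 change 2.40 ± 0.27, adjusted p = 1.47e-07). Ncl, nucleolin, was at 319.6, 324 and 307 CPM and 815 and 847 CPM (log2 change 1.39 ± 0.15, adjusted p = 1.23e-07). Ribosomal protein genes changed by smaller amounts, such as 0.70 ± 0.14 for Rplp0 and 0.97 ± 0.12 for Rpl18 on the log2 scale. They have many processed pseudogenes, so reads may be lost as not uniquely aligned or credited to those copies. Heat shock genes of the cytosol were called higher in 14 of 18 cases and lower in 2. Hsp90aa1, a chaperone of kinases, was at 291, 292 and 220.2 CPM and 806 and 879 CPM (log2 change 1.65 ± 0.14, adjusted p = 5.43e-09), and Cryab, alpha-B crystallin, which guards actin and desmin filaments, at 41.8, 47.4 and 78.1 CPM and 376 and 388 CPM (log2 change 2.78 ± 0.29, adjusted p = 5.76e-08).

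Lysosome and autophagy genes were called lower in 37 of 41 cases and higher in 0 (median log2 change -1.40). Without 3D replicate 3, 37 fell, and against it alone 30 (median -1.15). Scarb2, the membrane protein LIMP-2, which brings glucocerebrosidase to lysosomes, was at 790.4, 857 and 823 CPM in 3D and 147 and 145 CPM in 3D-2D (log2 change -2.50 ± 0.26, adjusted p = 5.77e-08), with the 3D libraries close to each other. Ctsb, cathepsin B, was at 8533, 6853 and 2214 CPM and 1022 and 935 CPM (log2 change -2.58 ± 0.43, adjusted p = 2.78e-05; -1.18, also called, against 3D replicate 3 alone). Ctsd, cathepsin D, was at 10466, 8625 and 3479 CPM and 2194 and 2238 CPM (log2 change -1.76 ± 0.34, adjusted p = 0.000147; -0.66, not called, against 3D replicate 3 alone). The cathepsins were thus highest in the 2 libraries with the highest macrophage markers, Lyz2 among these at 4522, 3192 and 105 CPM in 3D and 416 and 319 CPM in 3D-2D. Macrophages are rich in lysosomes, and their part in the cathepsin values was not tested.

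Cholesterol and fatty acid synthesis genes were called higher in 21 of 33 cases and lower in 2 (median log2 change 1.14). Idi1, an isomerase of isoprenoid synthesis, was at 8.13, 7.78 and 7.08 CPM in 3D and 44.4 and 58.6 CPM in 3D-2D (log2 change 2.75 ± 0.44, adjusted p = 2.22e-05). Adipogenic and lipid storage genes went the other way, with 15 of 20 lower and 1 higher (median -2.06; 10 lower with a median of -0.68 against 3D replicate 3 alone). The summed level of the list was 5849, 4327 and 1159 CPM in 3D and 749 and 785 CPM in 3D-2D. In 3D it stood in the same order of libraries as the summed macrophage markers given above, whose part in the list and in Lpl was not tested. Klf15, a factor of fat and amino acid metabolism that glucocorticoids induce, fell from 17.3, 18.2 and 20.8 CPM to 0.627 and 0.853 CPM (log2 change -4.66 ± 0.65, adjusted p = 3.91e-06). Plin4, a coat protein of lipid droplets, fell from 18.5, 19.5 and 43.1 CPM to 1.04 and 0.502 CPM (log2 change -5.10 ± 0.62, adjusted p = 5.87e-07; -5.74 without 3D-2D replicate 1). Lpl, lipoprotein lipase, fell from 1863, 1274 and 165 CPM to 71.7 and 59.6 CPM (log2 change -4.07 ± 0.72, adjusted p = 6.92e-05; -3.46 without 3D replicate 1).

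In energy metabolism, nuclear genes of oxidative phosphorylation were called higher in 20 of 29 cases and lower in 0, by a median of only 0.32 on the log2 scale, and in 12 and 11 cases without 3D-2D replicates 1 and 2, 9 with library totals as the only scaling and 12 with no filter on low counts. Cycs, cytochrome c, was at 50.02, 45.4 and 31.9 CPM in 3D and 112 and 125 CPM in 3D-2D (log2 change 1.48 ± 0.13, adjusted p = 7.07e-09), and Atp5b, the catalytic chain of ATP synthase, at 537, 529 and 514 CPM and 831 and 838 CPM (log2 change 0.66 ± 0.10, adjusted p = 7.46e-06). Glycolysis and hypoxia response genes were called higher in 8 of 27 cases (5 and 4 without 3D-2D replicates 1 and 2, 5 without 3D replicate 3) and lower in 2 (4 without 3D replicate 3). Over all genes tested 28.8% rose and 27.7% fell. Ddit4, an inhibitor of mTORC1 induced by hypoxia and glucocorticoids, was 1 of the 2 lower genes. It fell from 143, 179 and 166 CPM to 20.9 and 18.6 CPM (log2 change -3.04 ± 0.53, adjusted p = 5.43e-05). Of 22 ATF4, serine and folate genes, 7 rose and 7 fell. Psat1, an enzyme of serine synthesis, rose from 17.8, 16.1 and 11 CPM to 136 and 146 CPM (log2 change 3.24 ± 0.19, adjusted p = 2.12e-11), and Slc7a1, an arginine transporter, from 47.9, 52.3 and 35.3 CPM to 219.5 and 244 CPM (log2 change 2.36 ± 0.30, adjusted p = 1.13e-06). Txnrd1, the cytosolic thioredoxin reductase and an NRF2 target, rose from 336, 313 and 277 CPM to 1444 and 1819 CPM (log2 change 2.40 ± 0.30, adjusted p = 7.44e-07). Circadian genes were called lower in 8 of 17 cases and higher in 1. Dbp, an output gene of the clock, fell from 37.9, 41.3 and 81.9 CPM to 9.19 and 7.78 CPM (log2 change -2.66 ± 0.35, adjusted p = 1.41e-06), and Bhlhe41, a repressor in the clock, from 212, 204 and 165 CPM to 26.3 and 21.7 CPM (log2 change -3.01 ± 0.48, adjusted p = 2.21e-05). The hour of harvest is not given in the sources used here.

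Contacts between cells and the nuclear lamina also changed. Of 20 cadherins, connexins and contact genes, 10 rose and 2 fell, with a median log2 change of 0.62, or 1.18 without 3D replicate 3. Against 3D replicate 3 alone the median over these 20 genes was 0.24, and it turned to -0.08 over the 21 members tested there, of which 9 rose and 3 fell. Ncam1, a neural adhesion molecule, was at 20.97, 23.8 and 12.9 CPM in 3D and 136 and 188 CPM in 3D-2D (log2 change 3.08 ± 0.30, adjusted p = 3.19e-08), and Pkp2, the desmosome protein plakophilin 2, at 2.08, 1.1 and 2.39 CPM and 22.7 and 24.2 CPM (log2 change 3.64 ± 0.38, adjusted p = 5.86e-08). Lmna, the A-type lamin, whose level follows the stiffness of tissue, was at 439.9, 457 and 540.1 CPM and 950.5 and 861 CPM (log2 change 0.92 ± 0.18, adjusted p = 0.000152), and Lmnb1, a B-type lamin, at 10.7, 10.7 and 7.98 CPM and 60.8 and 52.8 CPM (log2 change 2.54 ± 0.25, adjusted p = 3.51e-08). Both lamin genes rose, the B-type by more. Hmga2, a chromatin protein of growing cells, was at 3.1, 2.67 and 21.1 CPM and 307 and 244 CPM (log2 change 4.91 ± 1.09, adjusted p = 0.000686; 6.58 without 3D replicate 3 and 3.70, not called, against it alone).

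Several stress and signalling lists had called members in both directions. Some of their counts moved when 1 library was left out. Over all genes tested 28.8% rose and 27.7% fell, and the ATF4 and NRF2 lists lay near these shares. Endoplasmic reticulum chaperones were called higher in 8 of 20 cases (4 without 3D-2D replicate 2) and lower in 1. ATF4, serine and folate genes were called higher in 7 of 22 cases and lower in 7 (4 and 3 without 3D-2D replicates 1 and 2, 4 without 3D replicate 1 or 2). NRF2 antioxidant genes were called higher in 8 of 27 cases and lower in 7 (4 and 3 without 3D-2D replicates 1 and 2, 4 without 3D replicate 1). Targets of p53 were called higher in 6 of 20 cases and lower in 7 (4 without 3D-2D replicate 2). Glucocorticoid response genes were called higher in 3 of 14 cases and lower in 5, semaphorins and their receptors in 5 (3 without 3D-2D replicate 2 and also without 3D replicate 1 or 2) and 9 of 24, and chromatin regulators in 11 and 10 of 28. Their median log2 changes lay between -0.79 for semaphorins and 0.24 for the glucocorticoid list.

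**Figure D4:**
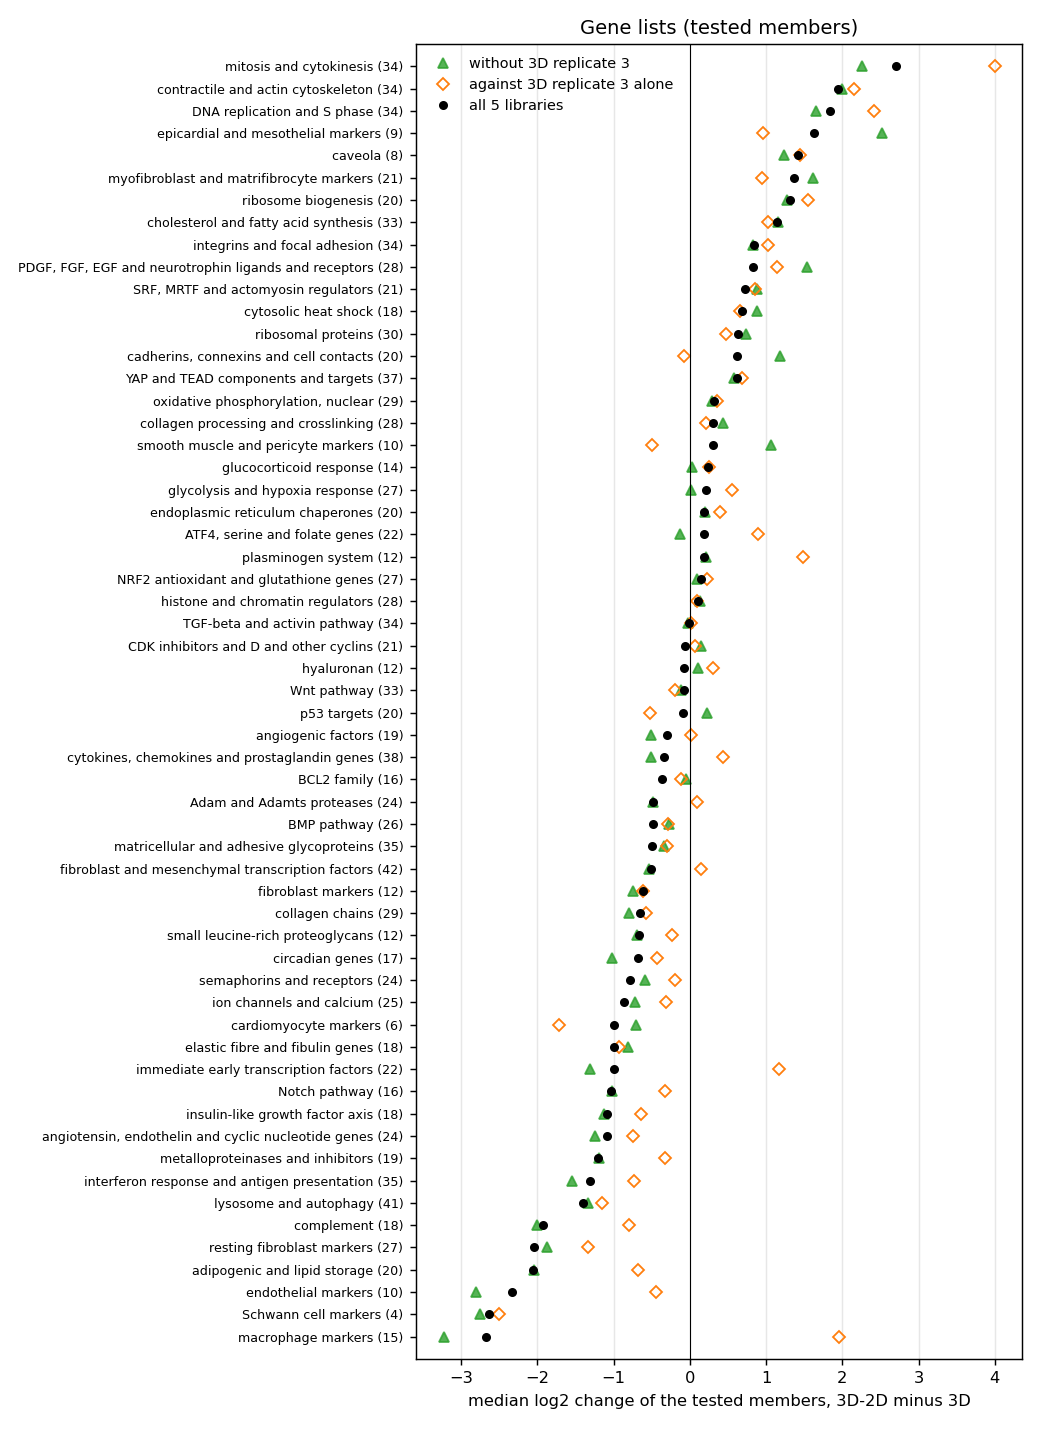
Median log2 change, 3D-2D minus 3D, over the tested members of each of the 58 lists with tested members (number in brackets), from all 5 libraries (black dots), without 3D replicate 3 (green triangles) and against 3D replicate 3 alone (open diamonds). The 3 values lie close together for contractile, caveola, YAP and TEAD and lysosome genes, and the diamond lies on the other side of 0 from the dot for macrophage and immediate early genes, among others.

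Against 3D replicate 3 alone 11 of the 58 medians (each over the members tested there) took the other sign from that over all 5 libraries: those of fibroblast transcription factors, immediate early genes, hyaluronan genes, Adam and Adamts genes, the TGF-beta and activin pathway, angiogenic factors, cytokines, cyclins and CDK inhibitors, cell contacts, macrophage markers and smooth muscle markers. Without it 4 did, those of hyaluronan genes, cyclins and CDK inhibitors, p53 targets, and ATF4, serine and folate genes.

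Markers of other cells that a heart digest could hold were read in the same way. Macrophage markers were called lower in 10 of 15 cases and higher in 0, with a median log2 change of -2.67. Its falling count was 1 and 0 without 3D-2D replicates 1 and 2, 2 without 3D replicate 1 and 15 without 3D replicate 3. Against 3D replicate 3 alone 1 rose, 0 fell and the median was 1.95. Endothelial markers were called lower in 7 of 10 cases (3 without 3D-2D replicate 2 and 1 against 3D replicate 3 alone) and higher in 1, at a summed level of 401, 393 and 411 CPM in 3D and 462 and 475 CPM in 3D-2D. Epicardial and mesothelial markers were called higher in 7 of 9 cases (4 without 3D-2D replicate 2, 3D replicate 1 or 3D replicate 2, and against 3D replicate 3 alone) and lower in 0, at a summed level of 80.04, 89.02 and 102 CPM and 194 and 209.7 CPM. Cardiomyocyte markers summed to 67.5, 72.9 and 208 CPM and 19.97 and 20.7 CPM, but only 1 of 6 tested was called lower and 0 higher. Schwann cell markers summed to 38.4, 33.8 and 30.6 CPM and 5.81 and 6.07 CPM, with 4 of 4 tested Schwann genes lower (2 without either 3D-2D library). The fibroblast markers were called lower in 5 of 12 cases (8 with library totals as the only scaling, 2 without 3D-2D replicate 2 and 3 against 3D replicate 3 alone) and higher in 2, at a summed level of 34609.7, 38281 and 24131 CPM and 19885 and 20088 CPM. Lymphocyte and erythroid markers summed to less than 1 CPM in every library and none was tested.

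Against cells labelled 2D, which the labels do not say had ever been in 3D, fewer genes were called. Of 14036 genes, 2019 (14.4%) were called, 961 (6.85%) higher and 1058 (7.54%) lower in 3D-2D. The number depended strongly on single libraries: it was 171 without 3D-2D replicate 2, 797 without 3D-2D replicate 1, and 817, 1147 and 2947 without 2D replicates 1, 2 and 3. With the most alike libraries of each group summed into 1, edgeR called 0, with 1356 genes at an unadjusted p under 0.05. The 2D replicate 3 stood 0.76 and 0.75 from the other 2D libraries, as a standard deviation of log2 differences, and 0.573 and 0.656 from the 3D-2D libraries, which made it the 2D library closest to 3D-2D. It held 2488 reads of Y-linked genes, against 7 and 3 in the other 2D libraries. Acta2 was at 3368, 3876 and 1955 CPM in 2D, on both sides of its 3D-2D levels (log2 change -0.19 ± 0.43, adjusted p = 0.802). Ankrd1 was at 669.6, 808 and 1560.5 CPM in 2D and higher in 3D-2D (log2 change 1.55 ± 0.48, adjusted p = 0.0342). Contractile genes were higher than in 2D in 4 cases and lower in 3, and mitosis genes were higher in 0 and lower in 22 of 34. Cdc20 was at 103, 114 and 75.9 CPM in 2D (log2 change -1.57 ± 0.32, adjusted p = 0.00278). For mitosis genes the 3D-2D level thus lay between 3D and 2D, as the mean log2 CPM of the list shows (2.77, 2.5 and 1.02 in 3D, 5.08 and 4.36 in 3D-2D and 6.24, 6.25 and 5.89 in 2D). NRF2 antioxidant genes were higher than in 2D in 10 of 27 cases and lower in 0, with Txnrd1 at 591, 638 and 1042 CPM in 2D (log2 change 1.11 ± 0.29, adjusted p = 0.0154).

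Among the larger rises over 2D were those of Serpinb2, at 0.998, 1.03 and 78.6 CPM in 2D (log2 change 3.57 ± 1.15, adjusted p = 0.0421), Sema7a, a membrane-anchored semaphorin, at 5.41, 6.23 and 37.5 CPM (log2 change 3.54 ± 0.70, adjusted p = 0.00255), and Ptgs2 at 91.2, 98.7 and 167 CPM (log2 change 3.11 ± 0.67, adjusted p = 0.00442). Nr4a2, a nuclear receptor, was at 3.49, 3.31 and 6.99 CPM in 2D and 26.3 and 32.5 CPM in 3D-2D (log2 change 2.64 ± 0.40, adjusted p = 0.000284). All 4 were higher in both 3D-2D libraries than in any 2D library, as the rule for naming them required. Several of the larger falls below 2D leaned on 2D replicates 1 and 2. Kif26b, a kinesin-like protein, was at 294, 258 and 29.6 CPM in 2D and 10.8 and 8.88 CPM in 3D-2D (log2 change -4.29 ± 0.78, adjusted p = 0.00149), and Eln at 131, 108 and 9.17 CPM in 2D (log2 change -4.22 ± 0.89, adjusted p = 0.00381). Gucy1a3, a subunit of the nitric oxide receptor, was at 64.5, 60.3 and 10.95 CPM and 2.72 and 2.96 CPM (log2 change -3.98 ± 0.68, adjusted p = 0.000942), and Wisp2, a matricellular protein, at 1120.2, 1137 and 103 CPM and 55.2 and 47.9 CPM (log2 change -3.93 ± 0.94, adjusted p = 0.00858). In these 4 genes 2D replicate 3 was the 2D library nearest to 3D-2D. That it lay above both 3D-2D libraries in all 4 followed from the rule for naming them. Nr4a2 and Wisp2 did not pass the test against 3D. Nr4a2 was at 34.2, 19.1 and 12.5 CPM in 3D (log2 change 0.42 ± 0.38, adjusted p = 0.358). Wisp2 was at 104, 122 and 26.5 CPM in 3D (log2 change -0.71 ± 0.80, adjusted p = 0.469). Of the 11 genes named here as called against 2D, the number still called was 7 without 3D-2D replicate 1, 2 without 3D-2D replicate 2, and 8, 8 and 11 without 2D replicates 1, 2 and 3. Ankrd1 kept its call only without 2D replicate 3 (2.01), as did Serpinb2, whose change then came to 8.33. Sema7a was at 5.08 without that library.

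A further 2 groups of 3 libraries each carry labels that begin with 3D-2D and go on to a further 3D or 2D arrangement. Their mean levels are given beside those above as a description. Acta2 was at 18.6 CPM in 3D-2D-3D and 871 CPM in 3D-2D-2D, and Ankrd1 at 34.9 CPM and 374 CPM. Lox was at 624 CPM and 5034 CPM, and Mmp2 at 1732 CPM and 1086 CPM. Mki67, at 4.11 CPM and 32.6 CPM, was below its 3D-2D level in both. Timp1 was at 2214 CPM and 313 CPM, and Col1a1 at 9202 CPM and 24281 CPM.

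**Figure D5:**
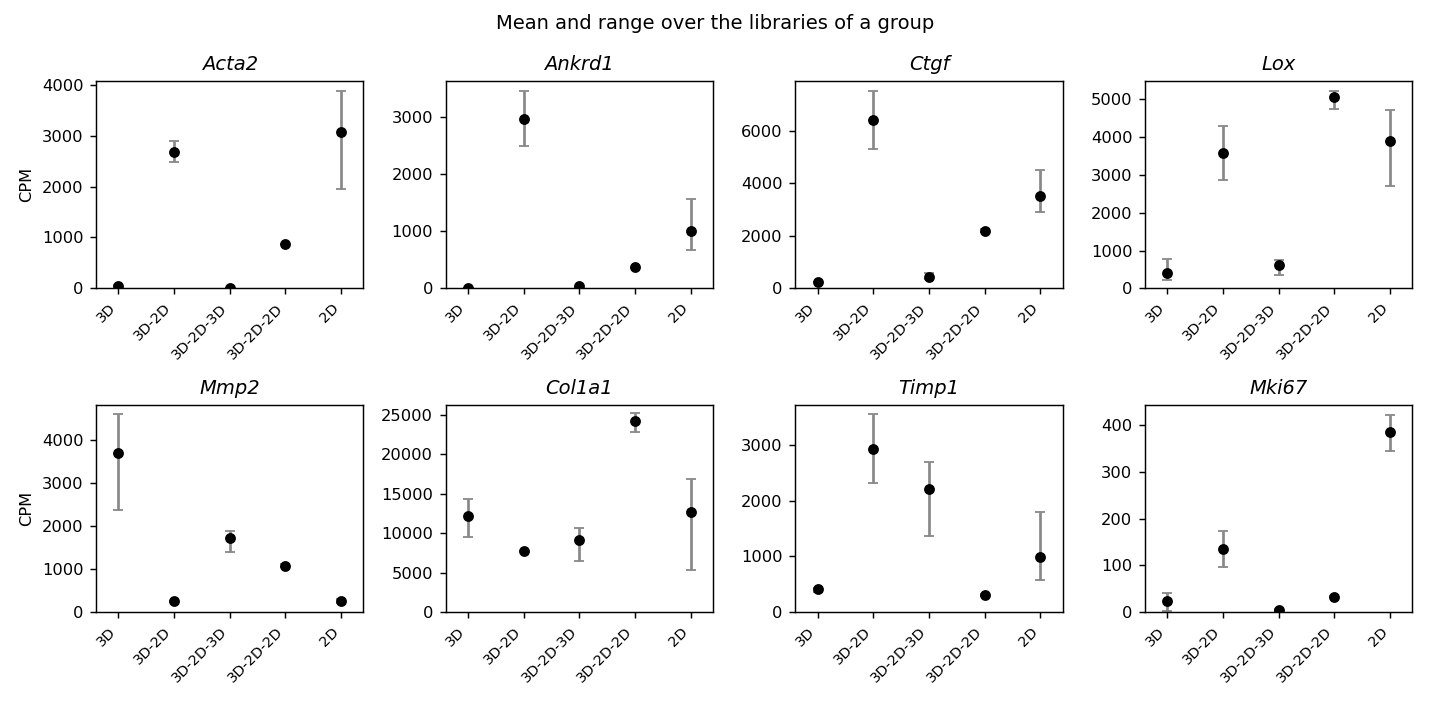
Mean CPM (dots) and range over libraries (bars) of 8 genes in the groups 3D (3 libraries), 3D-2D (2), 3D-2D-3D (3), 3D-2D-2D (3) and 2D (3). Acta2, Ankrd1, Ctgf and Lox have a lower mean in 3D-2D-3D than in 3D-2D, and Ankrd1, Ctgf and Timp1 have the highest mean of these groups in 3D-2D.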

How the data were processed

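RNA was sequenced from 29 libraries in 10 groups. The 2 chromatin accessibility (ATAC) samples of the series were not analysed here. The authors deposited whole-number read counts for 24421 gene symbols with 5 summary lines of the counting program, which were left out. These lines held between 14.1% and 18.8% of the reads of the 8 libraries compared as not uniquely aligned. TopHat, Bowtie, HTSeq and MACS2 and the build mm10 are named, without versions or roles, per the submitters' processing notes. Annotation and strandedness: not given in the sources used here. A gene and its antisense partner can therefore not be told apart. In the deposited counts 27 symbols had been turned into dates and 2 symbols occurred more than once. Of the symbols, 23204 matched a current RefSeq name and 24286 a current or older one.

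Counts of all 29 libraries were scaled by TMM and filtered by filterByExpr (14036 genes left). They were fitted with edgeR 4.0.16 (limma 3.58.1, R 4.3.3) by its quasi-likelihood test with a mean per group. P-values were adjusted by Benjamini-Hochberg over all genes tested, with a threshold of 0.05. CPM are counts scaled to 1000000 by the effective library size, and log2 CPM have a prior count of 2. A standard error is the log2 change divided by the square root of F. Promoters are the 250 bases before the start in RefSeq on GRCm38.p6.

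Genes are named by rule: the 12 largest rises and falls of called genes that averaged 3 or more in log2 CPM without overlap of the groups, in each list up to 5 called members with the largest change and the 2 most abundant (any member of a list of up to 12), and a fixed panel. Against 2D, the 6 largest rises and falls under the same limits were added, so these genes do not overlap between 3D-2D and 2D. The members, lists and alternatives were chosen with earlier results of these data known. Alternatives were RLE factors, library totals, other filters, DESeq2 1.42.0, a fit limited to the groups compared, the replicate number as a block, leaving out each library, 3D replicate 3 alone, and the most alike libraries summed. Some genes that the rule selects, 1 of the 12 largest rises among them, are not reported here by name.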

Additional observations from a re-analysis of the deposited data

How the results depend on the processing

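The 2 libraries of 3D-2D limit every value here, and nothing in the labels says how they were grown. Counts of called genes against 3D stayed within 1.5 times 7936 under other scalings, filters and tools, from 6588 (only the groups compared) to 8204 (DESeq2). With library totals alone, 7891 were called, 3250 higher and 4641 lower, and the median of all genes was at -0.16. With the most alike libraries summed, 3991 were called, 2206 higher and 1785 lower. Leaving out each library gave between 5761 and 7845 calls, 3181 to 4077 of them higher and 2580 to 3768 lower. Of the genes called, between 49.7% (most alike libraries summed) and 99.1% (at least 1 CPM in 3 libraries) were called in the same direction under an alternative, with 7 called in the opposite direction against 3D replicate 3 alone and 0 under the others. Of the 58 lists, 25 had a median above 0, and 24 to 33 under the alternatives.

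Against 2D, the fit of only the groups compared called 523 genes, 160 higher and 363 lower, and the most alike libraries summed 0 (0 higher, 0 lower, 1356 at an unadjusted p under 0.05). DESeq2 called 2526. Leaving out each library gave 171 to 2947 calls, 55 to 1533 higher and 116 to 1414 lower.

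Replicate numbers were shared between groups, but no label ties a number to a shared animal, batch or day, so the number was not taken as a pairing. The correlation of deviations from the group means was 0.131 for 3D-2D and 3D replicate 1 and -0.0768 for replicate 2. With 2 libraries in 3D-2D, whose deviations mirror each other, these values cannot tell whether the numbers pair the samples. With the number as a replicate block, in a fit of only the groups compared, 9957 genes were called against 3D (5019 higher, 4938 lower) and 6264 against 2D (3012 higher, 3252 lower).

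Signs turned for these named genes. Against 3D replicate 3 alone Ccl2 was at 2.13, Col4a1 at -0.28, Egr1 at 1.76, Fn1 at -0.34, Lyz2 at 1.80, Plau at 2.26, Runx1 at 0.65, Sparc at -0.15 and Wwtr1 at -0.32 on the log2 scale. Without 3D replicate 1 Runx1 was at 0.10 and Wwtr1 at -0.08, and without 3D replicate 2 Runx1 was at 0.03 and Wwtr1 at -0.02. Without 3D replicate 3 Pcna was at -0.18, and without 3D-2D replicate 1 Prkcdbp was at -0.04 and Runx1 at 0.02. With the most alike libraries summed Col4a1 was at -0.00, Runx1 at 0.02 and Wwtr1 at -0.08. With library totals alone Wwtr1 was at -0.08, and with the replicate block Pcna was at -0.19. Against 2D, Acta2 was at 0.01 without 2D replicate 2. Over the libraries left out in turn, the range was -0.43 to 0.01 for Acta2 against 2D, and against 3D -0.18 to 0.60 for Pcna, -0.04 to 0.38 for Prkcdbp, -0.35 to 0.10 for Runx1 and -0.08 to 0.30 for Wwtr1. Plau was called in both directions, and so was Egr1, which was called lower without 3D replicate 3. The cause was not tested.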
